A study of Mus musculus with 16 samples.

Results

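miR-335 is a microRNA whose hairpin lies in an intron of the mouse gene Mest, and both of its mature arms, mmu-miR-335-3p and mmu-miR-335-5p, are described here in small RNA of plasma extracellular vesicles (pEVs). The members are the 2 mature arms, of 15159 non-coding RNAs (ncRNAs) and 817 mature miRNA entries listed for the same 16 libraries. They were chosen by the normalized counts of the 3p arm, which was among the miRNAs lower in PS19 than in wild-type (WT) mice in these libraries, so the genotype difference of either arm is given as a description, with no test. The 3p values also enter the comparison of the arms within a library, which is likewise given with no test.

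The study asked whether changes of tau-driven neurodegeneration are mirrored in pEV RNA, with 8 heterozygous PS19 mice (PS19+/-) and 8 WT mice, 1 library per mouse. PS19 mice express a mutant human tau, one that causes familial frontotemporal dementia, from the mouse prion protein (Prnp) promoter. The mice had a mixed C57BL/6 and C3H background, were in the tenth month of life, received no treatment, and comprised males and females in equal number, with no sex given per library. The vesicles were precipitated from plasma, so RNA of the vesicles and RNA that co-precipitated from plasma cannot be told apart from the read counts alone. The number of vesicles was not analysed here.

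A miRNA gene is transcribed as part of a longer RNA that folds into a hairpin, which is cut out and trimmed to a duplex of 2 short strands. The strand from the left side of the hairpin is the 5p arm and the strand from the right side is the 3p arm. Usually one strand is kept by an Argonaute protein and the other is degraded, and the kept strand finds target mRNAs mainly through its seed, bases 2 to 8. Both arms of a hairpin are transcribed together, as parts of the same RNA. Mest (mesoderm specific transcript, also called Peg1) is an imprinted gene expressed from the paternal copy, known as a regulator of fetal growth and of fat tissue expansion.

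The mature arms are shown because they are the 2 sequences that were counted, with the seed in capitals.
mmu-miR-335-5p: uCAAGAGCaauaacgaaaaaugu
mmu-miR-335-3p: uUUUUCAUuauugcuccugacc
In RefSeq on GRCm38.p6 the 5p arm lies at chr6:30741314-30741336 and the 3p arm at chr6:30741354-30741375, both on the plus strand. The seeds differ, and neither is shared by any other of the 1679 mature mouse miRNAs of RefSeq (0 for each arm). No other mature miRNA there shared a run of 12 bases with either arm (0 for each). The 5p arm has 23 bases with 4 U and 7 G or C, and the 3p arm has 22 bases with 11 U and 8 G or C.

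The whole Mir335 hairpin is shown to place the arms, which are in capitals.
Mir335 hairpin: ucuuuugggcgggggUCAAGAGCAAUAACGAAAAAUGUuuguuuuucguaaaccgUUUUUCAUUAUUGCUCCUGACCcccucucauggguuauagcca
The hairpin spans 98 bases, chr6:30741299-30741396, with the 5p arm at positions 16 to 38 and the 3p arm at positions 56 to 77. Folded with RNAfold it reached -44.3 kcal/mol, with 18 base pairs between the arms and 17 bases between their inner ends. In that predicted fold 6 of the 7 seed bases were paired in each arm.

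The Mest gene spans chr6:30723547-30748465 on the same strand. In 7 of its 11 annotated transcripts the hairpin lies inside an intron of 1316 bases, chr6:30740825-30742140, which is intron 1, 2 or 3 depending on the transcript. The hairpin starts 474 bases after the upstream exon and ends 744 bases before the next one, and it overlaps no exon.

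Each deposited value is a count divided by the library's size factor, called normalized count below. The reads behind the values could be recovered, and the libraries held between 66767724 and 107372555 assigned reads in PS19 and between 36220722 and 117583663 in WT. Of these, 52562 to 1246139 reads were assigned to miRNAs in PS19 and 339731 to 2720314 in WT, and 1 read was worth between 0.389 and 3.83 normalized counts. The members rest on few reads at this depth, 344 for the 3p arm and 43 for the 5p arm over all 16 libraries. Intervals below cover counting error only.

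The 3p arm was read in all 16 libraries. In PS19 replicates 1 to 8 it had 2, 15, 1, 6, 1, 13, 3 and 12 reads, and in WT replicates 1 to 8 it had 26, 66, 14, 12, 78, 35, 24 and 36 reads. The WT libraries therefore held 291 of its reads and the PS19 libraries 53. The normalized count ranged in PS19 from 0.825 in replicate 5 to 23.0 in replicate 4, with a median of 5.83, and in WT from 13.7 in replicate 3 to 51.2 in replicate 8, with a median of 25.7. Of the PS19 libraries 7 lay below the lowest WT library, and only replicate 4 lay inside the WT range. That library was the one in which a read weighed most, and its 6 reads give a 95% Poisson interval from 8.44 to 50.1 normalized counts.

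The mean of the 3p arm was 7.76 ± 7.56 normalized counts (SD, n = 8) for PS19 against 27.3 ± 11.5 (SD, n = 8) for WT, a ratio of 3.52 of WT to PS19. On the log2(normalized count + 1) scale the PS19 mean was 2.10 below the WT mean (SE 0.547). These are the values that chose the miRNA. The spread between mice was wider than counting alone gives, by a factor of 2.35 in PS19 and 2.27 in WT. With reads summed over each genotype the levels were 6.67 and 26.7 normalized counts.

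The 5p arm was read in 1 of 8 PS19 libraries and in 5 of 8 WT libraries. PS19 replicate 5 held 23 reads and the other 7 PS19 libraries 0, while WT replicates 3 to 7 held 4, 1, 11, 3 and 1 reads and WT replicates 1, 2 and 8 held 0. That single PS19 library thus had more 5p reads than all WT libraries together, which had 20. It had 19.0 normalized counts, against 4.28 (95% Poisson interval from 2.13 to 7.65) in WT replicate 5, the highest WT library, and the intervals of these 2 libraries did not overlap. PS19 replicate 5 was also the library with the lowest 3p value.

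The mean of the 5p arm was 2.37 ± 6.71 normalized counts (SD, n = 8) for PS19 against 1.56 ± 1.71 (SD, n = 8) for WT, so the PS19 mean was 1.52 times the WT mean. On the log2(normalized count + 1) scale the order was the other way round, with a mean level of 0.54 in PS19 and 1.06 in WT, a difference of -0.52 (SE 0.600). The direction of the 5p arm therefore depended on the scale, and PS19 replicate 5 carried the whole PS19 mean. Without it PS19 had no 5p read, and a limit of 3 reads over these 7 libraries allows 0.446 normalized counts.

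**Figure D1:**
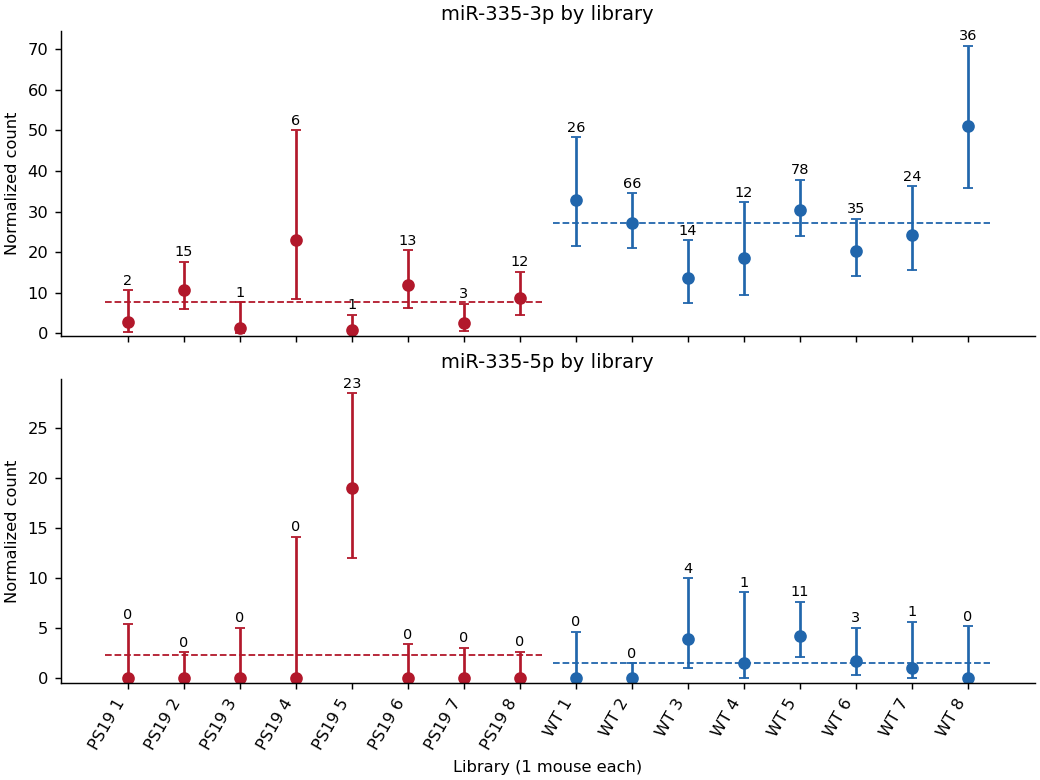
Normalized count of miR-335-3p (upper panel) and miR-335-5p (lower panel) in each of the 16 libraries, PS19 in red and WT in blue, with bars for the 95% Poisson interval of the reads, the number of reads above each bar and a dashed line at each genotype's mean. The 3p arm lies below the lowest WT library in 7 of 8 PS19 libraries, and the 5p arm stands at 19.0 in PS19 replicate 5 and at 0 in the other 7 PS19 libraries.

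Within libraries the 3p arm was the more abundant one. It exceeded the 5p arm in 15 of 16 libraries, and the 5p arm exceeded it in PS19 replicate 5. The mean difference, 3p minus 5p on the log2(normalized count + 1) scale, was 2.88 (SE 0.532, n = 16), with a range from -3.45 to 5.71. In WT the difference was 3.66 (SE 0.501, n = 8) and positive in 8 of 8 libraries. In PS19 it was 2.09 (SE 0.885, n = 8) and positive in 7 of 8 libraries.

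Without PS19 replicate 5 the PS19 mean was 2.88 (SE 0.458, n = 7). The 5p arm had 0 reads in these 7 libraries, so this mean is their 3p level alone. As such it repeats values that chose the miRNA. In the 10 of 16 libraries without a 5p read the difference depends on the count added before the log. With 0.1 added in place of 1 the mean over the 16 libraries was 4.91. The arm differences compare read numbers of 2 different sequences, and how well each was captured by adapter ligation and amplification was not measured.

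As a share of the reads of both arms, the 3p arm took 88.9% over all libraries (344 of 387 reads, exact Clopper-Pearson 95% interval from 85.3% to 91.8%). In WT it took 93.6% (90.2% to 96.0%) and in PS19 69.7% (58.1% to 79.8%). The lower PS19 share came from 1 library, since the other 7 PS19 libraries held 52 reads of the 3p arm and 0 of the 5p arm, a share of 100% with a lower limit of 93.2%. In PS19 replicate 5 the share was 4.17% (1 of 24 reads, 0.105% to 21.1%). The WT shares lay between 77.8% in replicate 3 and 100% in replicates 1, 2 and 8, so all WT libraries and 7 PS19 libraries stood on the same side.

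WT had 6.87 reads of the 5p arm for every 100 reads of the 3p arm. At that ratio the 3p reads of PS19 replicate 5 would go with 0.0687 reads of the 5p arm, where 23 were found. For the other 7 PS19 libraries the same ratio gives 3.57 reads in all, where 0 were found. WT replicate 5 held 11 of the 20 WT reads, and without it the WT ratio was 4.23 for every 100, which gives 2.20 reads for these 7 libraries. In each of them a limit of 3 reads was above the mean WT level of the 5p arm.

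**Figure D2:**
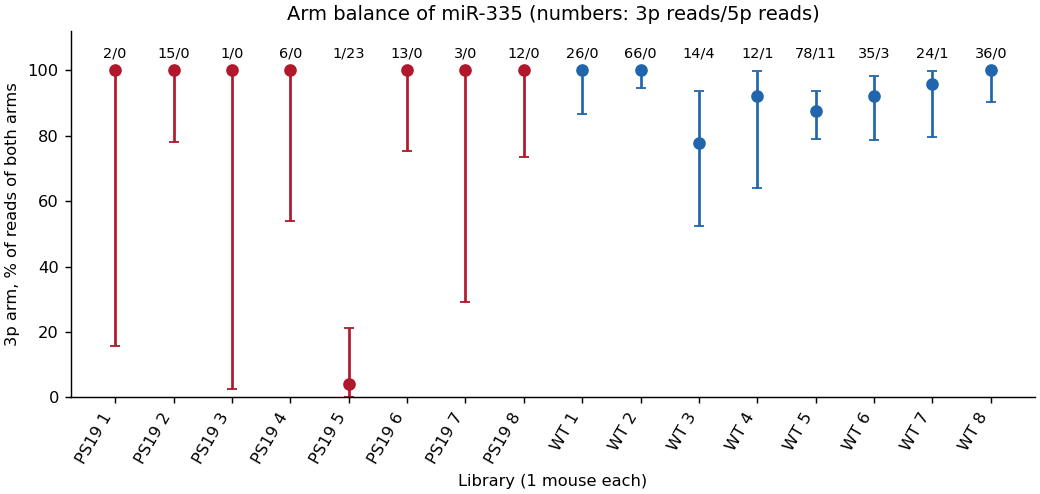
Share of miR-335-3p among the reads of both arms (percent) in each library, PS19 in red and WT in blue, with exact Clopper-Pearson 95% intervals and the reads of the 3p and 5p arm above each point. PS19 replicate 5 stands at 4.17% and all others at 77.8% or more, with wide intervals in libraries of few reads.

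The hairpin also has an entry of its own, mmu-mir-335, for reads assigned to the precursor. How reads were divided between it and the mature arms was not examined here. The precursor entry had 1 read in PS19 replicate 2 and 5 reads each in WT replicates 2 and 7, and 0 in the other 13 libraries. PS19 replicate 5, with its 23 reads of the 5p arm, had none. The mean was 0.0894 normalized counts in PS19 and 0.890 in WT, too few reads for a comparison.

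Other hairpins give a scale for this balance. Both arms were listed for 192 hairpins, of which 122 had at least 100 reads over the 16 libraries, with the 3p arm ahead in 57 and the 5p arm in 65. By reads miR-335 ranked 97 of these 122, and 93 had more unequal arms. Among 106 hairpins whose leading arm took at least 80% of the reads, 5 had a library of at least 10 reads with the other arm ahead. These were miR-351, miR-195a, miR-1934, miR-187 and miR-335.

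In miR-335 the other arm reached 95.8% of the reads in the library concerned, against 53.3% in miR-195a, 53.8% in miR-187 and 64.3% in miR-351, which had 2 such libraries. The other arm reached 100% in miR-1934, which had at least 10 reads in 2 libraries only. For miR-335 12 libraries had at least 10 reads. PS19 replicate 5 was the library concerned in 5 of the 19 hairpins that had any such library, and in 2 of the 10 that had exactly 1.

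**Figure D3:**
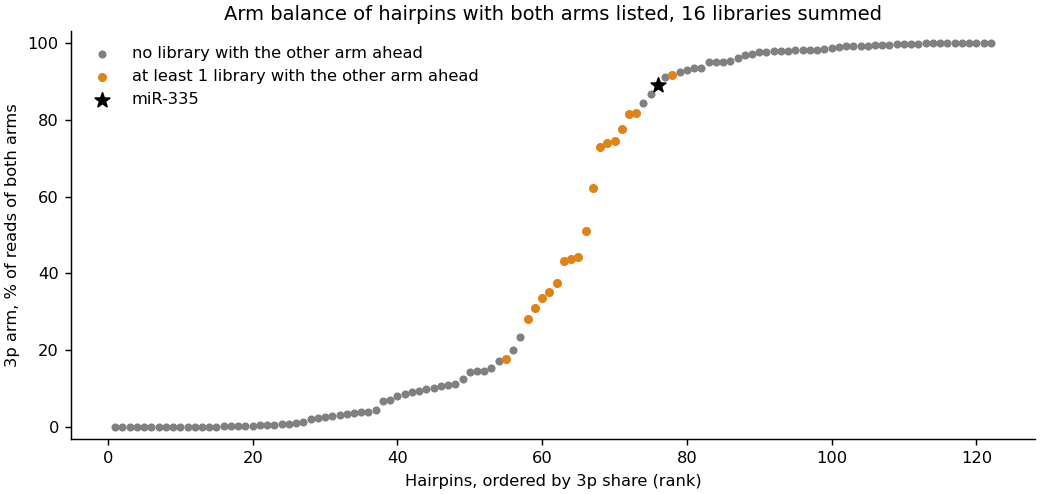
Share of the 3p arm among the reads of both arms (percent, 16 libraries summed) for the 122 hairpins with at least 100 reads, ordered by that share, with the 19 hairpins that had a library with the other arm ahead in orange and miR-335 as a star at 88.9%. Most hairpins lie near 0% or 100%, and the orange ones lie mainly between.

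A large share of an entry in 1 library was not particular to the 5p arm. Of 752 miRNA entries with at least 10 reads, 117 had over 50% of their summed normalized count in 1 library, and a library held between 1 and 27 of them, with a median of 6. PS19 replicate 5 held 10, among them miR-335-5p with 60.3% of its sum. The others included miR-410-3p with 19 reads there and 10 elsewhere, miR-34b-5p with 14 and 2, and miR-344f-3p with 11 and 0.

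The deposited mean of each entry bears on the 5p arm. For the 3p arm the authors' mean of 17.5 normalized counts equalled the mean of the 16 values. For the 5p arm the authors' mean was 0.780, while the 16 values average 1.97, or 0.832 without PS19 replicate 5. DESeq2 by default replaces an outlying count in groups of this size and fits the entry again, while the deposited value of that library still holds its 23 reads. Whether such a replacement gave the authors' mean was not tested.

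The 3p arm was lower in PS19 on each scale, by different amounts. Per 1000000 assigned reads it was 0.0827 ± 0.0761 (SD, n = 8) for PS19 against 0.534 ± 0.596 (SD, n = 8) for WT, a ratio of 6.45 of WT to PS19, with 6 PS19 libraries below the lowest WT library. WT replicate 2 reached 1.82 on this scale, and without it the ratio was 4.23. Per 1000000 miRNA reads it was 25.1 ± 37.0 (SD, n = 8, median 12.1) for PS19 against 41.2 ± 27.3 (SD, n = 8, median 31.0) for WT, a ratio of 1.64. On that scale 6 PS19 libraries again lay below the lowest WT library, but PS19 replicate 4 reached 114, so that all 8 WT libraries lay inside the PS19 range. Without PS19 replicate 4 the PS19 mean was 12.4 and the ratio 3.31. With size factors from the miRNA entries alone the means were 9.94 and 24.0, a ratio of 2.41 (4.10 without PS19 replicate 4), and 7 PS19 libraries lay below the lowest WT library.

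**Figure D4:**
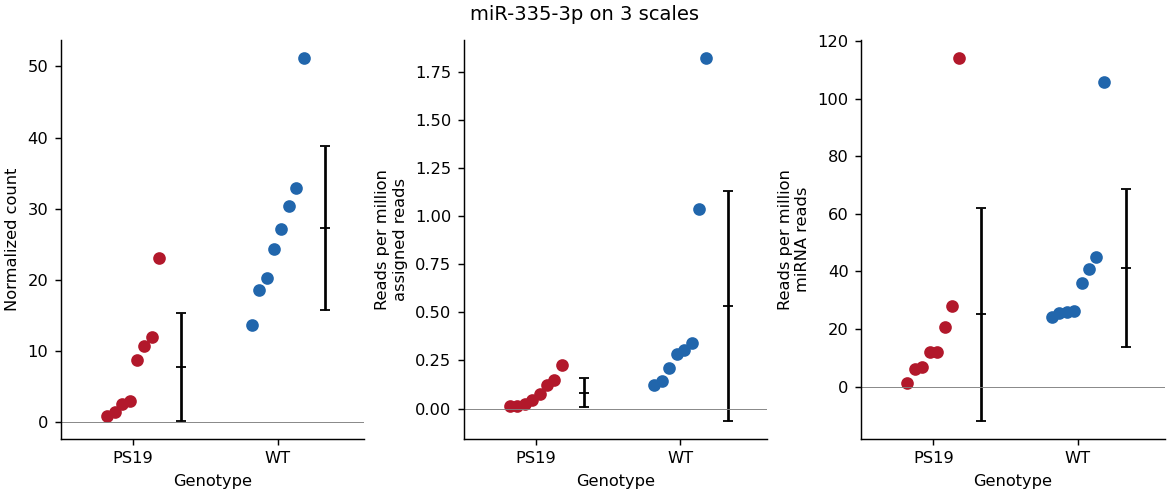
miR-335-3p in 8 PS19 (red) and 8 WT (blue) libraries as normalized count, as reads per 1000000 assigned reads and as reads per 1000000 miRNA reads, 1 point per library, with mean ± SD in black. The WT points lie mostly above the PS19 points on each scale, and PS19 replicate 4 stands at 114 per 1000000 miRNA reads.

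**Figure D5:**
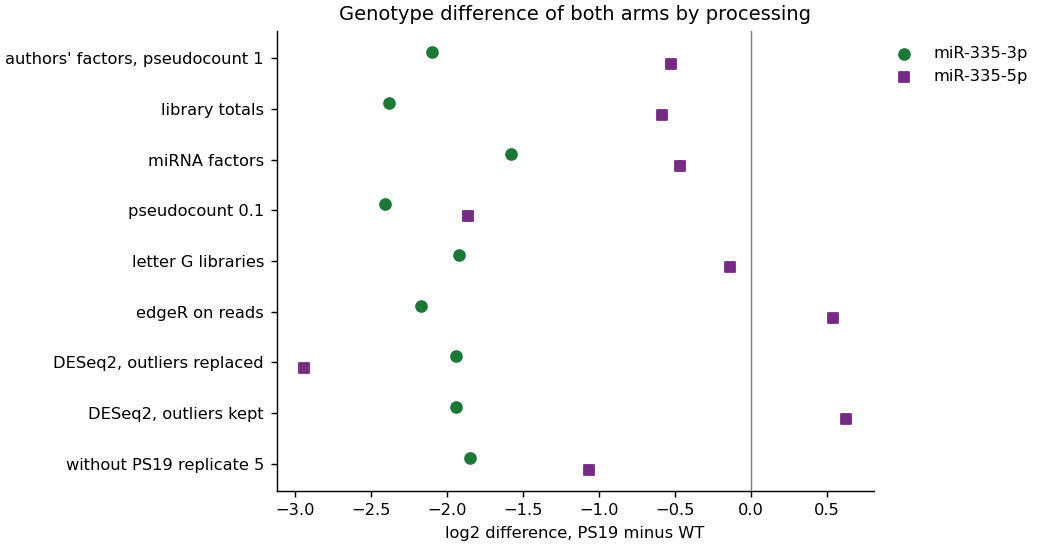
Difference of mean log2 level, PS19 minus WT, of miR-335-3p (green circles) and miR-335-5p (purple squares) under 9 ways of processing, named on the vertical axis. The 3p arm lies between -2.41 and -1.58 throughout, while the 5p arm lies below 0 except with edgeR (0.54) and with DESeq2 when outliers are kept (0.63).

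The libraries could also be divided by the first letter of the library name, which is G for all 8 PS19 libraries and for WT replicates 2 and 4, and A or F for the other 6 WT libraries. The meaning of the letter is not given in the sources used here. The 2 WT libraries with the letter G had a mean 3p level of 22.8 normalized counts, both above 7 of the 8 PS19 libraries, and the log2 difference within that letter was -1.92. Their 5p mean was 0.772, and the log2 difference of the 5p arm within that letter was -0.13. The other letters hold WT libraries only, so genotype and letter cannot be told apart there.

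As the background for calls, limma gave a raw p below 0.05 to 735 of 15159 ncRNAs, or 4.85%, in either direction. Of 1247 miRNA entries it called 63, or 5.05%, lower in PS19 and 11 higher. The 63 depended on the processing. It was 28 with size factors from the miRNA entries alone and 28 with DESeq2 and its outlier replacement. With edgeR it was 153, and with a library left out it lay between 34 and 87. No ncRNA passed after Benjamini-Hochberg adjustment with limma (0 of 15159, smallest adjusted p = 0.829). On the recovered reads edgeR gave an adjusted p below 0.05 to 318 ncRNAs, and DESeq2 to 113 with its outlier replacement and to 294 without it.

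Of 16 miRNA markers of red cells, liver, myeloid cells with platelets, and brain, all were detected, 14 had a lower mean log2 level in PS19 (9 with size factors from the miRNA entries alone), and 3 passed a raw p of 0.05, all lower (limma, adjusted p = 0.829 for each). These were the liver miRNA miR-122-5p with a log2 difference of -1.57 and the red cell miRNAs miR-486a-5p with -1.41 and miR-486b-5p with -1.42. The 2 miR-486 entries had 736300 and 751444 reads. Whether the same reads were counted in both was not tested, so they cannot be taken as 2 separate calls. The marker calls depended on the processing and on single libraries. DESeq2 called none (0 at a raw p of 0.05), size factors from the miRNA entries alone gave 0 lower and 1 higher, the myeloid miR-223-3p at 1.27, and the count was 0 without PS19 replicate 1 or 3 or WT replicate 1 or 2, and 1 without WT replicate 4 or 7. The miRNAs called changed as well. Without PS19 replicate 4 miR-122-5p and the brain markers miR-9-5p (-1.28) and miR-219a-2-3p (-1.16) were called lower and the miR-486 entries were not, and within the libraries of letter G the red cell marker miR-451a (-2.01) was called with both miR-486 entries in place of miR-122-5p. The summed red cell markers, both miR-486 entries included, ranged from 3517 to 88200 normalized counts in PS19 and from 34008 to 186535 in WT. The liver markers ranged from 8502 to 211904 in PS19 and from 26564 to 386443 in WT. The myeloid and platelet markers ranged from 23.0 to 218 in PS19 and from 34.1 to 147 in WT, and the brain markers from 1037 to 10439 and from 2275 to 10792. The part of these sources in the 3p difference was not tested.

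The other imprinted loci listed here, leaving aside the large Dlk1-Dio3 cluster, hold miR-483 in Igf2, miR-675 in H19, and miR-296 with miR-298 in the Gnas region. They are not taken as a full set of imprinted loci. Of the 8 mature arms listed, 4 had reads, all 4 had a lower mean log2 level in PS19, and 0 passed the threshold in either direction, beside the background of 4.85%. One of the 4, miR-296-5p, had 13 reads in 1 WT library and 0 in PS19, so it could only be lower. The median log2 difference of the 4 was -0.63, with a range from -0.97 to -0.23, against -0.20 over all miRNA entries and -0.01 over all ncRNAs. With size factors from the miRNA entries alone it was -0.38, against -0.09 over all miRNA entries. Among entries with a mean of at least 1 normalized count it was -0.94 for the list and -0.56 for miRNA entries. miR-296-3p had 19.5 ± 22.4 normalized counts (SD, n = 8) for PS19 against 29.9 ± 26.4 (SD, n = 8) for WT, and miR-298-5p had 14.9 ± 15.8 (SD, n = 8) and 17.9 ± 7.57 (SD, n = 8). The values of miR-296-3p and miR-298-5p overlap widely between the genotypes.

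On chromosome 6 near Mest, 14 mature arms of miR-29a, miR-29b-1, the cluster of miR-182, miR-183 and miR-96, miR-129-1 and miR-490 were listed, at 321 to 5680 kb from Mir335, and 9 had reads. Of these 8 had a lower mean log2 level in PS19 and 1 a higher one, with a median of -0.52 and a range from -0.90 to 0.45. With size factors from the miRNA entries alone 5 of the 9 were lower, with a median of -0.25. One passed the raw threshold as lower, miR-29b-1-5p, which rests on 8 reads in 5 WT libraries and 0 reads in PS19 (limma, adjusted p = 0.829). Within the libraries of letter G it was not called, and miR-490-3p, with 5 reads in all, was.

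Among the abundant members of that list, miR-29a-3p, an arm with a target set that includes collagen mRNAs, had 414 ± 315 normalized counts (SD, n = 8) for PS19 against 399 ± 204 (SD, n = 8) for WT. miR-182-5p and miR-183-5p, both of a cluster best known from sensory cells, had 110 ± 79.9 and 165 ± 153 for PS19 against 126 ± 50.3 and 243 ± 180 for WT (SD, n = 8 each). The neuronal miR-129-5p had 129 ± 163 for PS19 against 153 ± 94.1 for WT (SD, n = 8 each). miR-129-5p and miR-29b-3p also arise from a second gene on another chromosome, so their reads are not those of chromosome 6 alone.

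The miRNAs whose profile over the 16 libraries was most like that of miR-335-3p were found by the root mean square distance of log2 levels, each centred on its own mean, among 269 mature miRNAs with at least 100 reads. The nearest were miR-409-3p (0.95), miR-145a-3p, miR-125a-5p (1.05), miR-543-3p (1.08) and miR-143-3p (1.11), while the median distance was 1.57. This order includes the genotype difference that chose the 3p arm. miR-145a-3p had 44.1 ± 33.1 normalized counts (SD, n = 8) for PS19 against 106 ± 39.0 (SD, n = 8) for WT.

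Centred within each genotype instead, the nearest were miR-409-3p (0.78), miR-92b-3p (0.83), miR-181b-5p (0.85), miR-125a-5p (0.87) and miR-181a-5p (0.88), with a median of 1.39. miR-409-3p and miR-125a-5p stood in both orders. miR-409-3p had 32.7 ± 29.4 normalized counts (SD, n = 8) for PS19 against 52.3 ± 12.2 (SD, n = 8) for WT. The points share libraries, depth and size factors. Within genotype the 3p arm had an SD of 1.02 on the log2 scale, against a median of 1.15 over the 269, and 97 of them varied less.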

How the data were processed

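Small RNA of pEVs from 8 PS19 and 8 WT mice was analysed. The authors aligned reads to mm10 with STAR 2.5.3a, assigned them with COMPSRA and deposited, as signal, counts divided by DESeq2 1.42.1 size factors. The log2 fold changes, their errors, Wald scores and p-values that the authors deposited were not used. Each signal value was a whole multiple of its library's smallest one (100% within 1e-06), which gave back the reads.

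Levels were compared as log2(normalized count + 1) with limma 3.58.1 (lmFit, eBayes with trend) over 15159 ncRNAs at a raw p of 0.05, as in the study, and after adjustment. Arms were compared by their log2 difference within each library, with no test, since the 3p values that chose the miRNA enter it. R 4.3.3, edgeR 4.0.16, DESeq2 1.42.0, Python 3.11.15, numpy 2.4.6, pandas 2.3.3, scipy 1.17.1 and RNAfold 2.7.2 were used, with GENCODE M21 and RefSeq on GRCm38, where both arms matched. Scripts were tested on simulated data.

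The alternatives were library totals, miRNA-only size factors, a pseudocount of 0.1, a mean of at least 1, edgeR and DESeq2 on the reads, each library left out, the libraries of letter G and a replicate block. Arm differences in whole reads, ratios and marker calls with a library left out, and shares without libraries under 10 reads of both arms were added after seeing the data. The members, marker and locus lists were chosen with earlier results of these data known. Named are the members, their precursor, list entries past a raw p of 0.05 or with 10 reads per library on average, and the 5 nearest profiles. Other named miRNAs were chosen after their values were seen. WT mice were littermates, the litter and batch of each mouse are not given in the sources used here, and equal replicate numbers name different mice.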

Additional observations from a re-analysis of the deposited data

Results flagged for a closer look

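In 8 of 16 groups looked at, 1 library lay further from the rest than Dixon's 95% limit for 8 values. Chance alone gives such a library in a small part of groups of normal values, about 5%, and these groups are not independent, since the scales share reads. The limit is used here to point to values, not as a test. PS19 replicate 5 stood apart on each scale of the 5p arm, at 19.0 normalized counts, 0.294 reads per 1000000 assigned reads and 27.9 reads per 1000000 miRNA reads, each against 0 in the other 7 PS19 libraries. It also stood apart in the balance of the arms, with a log2 difference of -3.45 where the next PS19 library had 1.25, and with 4.17% of reads from the 3p arm where the others had 100%. Where the other 7 libraries share the same value, 0 or 100%, any different value passes the limit, whatever its size.

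WT replicate 5 stood apart in the 5p arm per 1000000 assigned reads, at 0.146, with 0.0357 in the next library. Per 1000000 miRNA reads, the 3p arm stood apart in PS19 replicate 4 at 114, with 28.0 in the next library, and in WT replicate 8 at 106, with 45.0 in the next. The PS19 value of 114 comes from 6 reads in the library with the fewest miRNA reads, 52562.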

How the results depend on the processing

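The lower 3p level in PS19 kept its direction under all 24 alternatives, between -2.41 and -1.58 on the log2 scale, and between -2.38 and -1.85 with a library left out. These alternatives reuse the libraries and values that chose the miRNA, so the unchanged direction adds no separate support. The replicate block, 1 of them, could not change the difference. The 5p difference of -0.52 was -1.86 with a pseudocount of 0.1 -0.13 within letter G and -2.94 with DESeq2 and its outlier replacement, and turned to 0.54 with edgeR and 0.63 with DESeq2 without replacement. With a library left out it lay between -1.06 (without PS19 replicate 5) and -0.33. The arm difference, which the same 3p values enter, kept its direction under all 21 alternatives, between 2.45 and 4.91. The 3p share lay between 84.5% and 94.5%.

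Of ncRNAs called by limma at a raw p, 735 in the main analysis, 412 were higher and 323 lower in PS19. Library totals gave 444 (146 higher, 298 lower) and edgeR 2295, miRNA-only factors gave 766 higher and 128 lower, and letter G 139 higher and 505 lower. The median of all ncRNAs was -0.01, -0.11 with library totals and 0.18 with miRNA-only factors. Leaving out a library gave 567 to 846. Of the listed miRNAs 1 was called, and 0 with a mean of at least 1 and by DESeq2 with or without replacement. With edgeR 3 were called (miR-29b-1-5p and miR-296-5p lower, miR-96-5p higher), on 5 to 13 reads each, all in 1 genotype. Beside these, edgeR called 153 of 1247 miRNA entries lower and 92 higher. Within letter G 1 was called, miR-490-3p in place of miR-29b-1-5p. With a library left out 1 to 2 were called, where miR-129-5p was added without PS19 replicate 4 and miR-183-5p without PS19 replicate 8. The causes were not tested.

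The replicate block gave 685 calls. With 1 PS19 and 1 WT library per number it cannot change a difference of means, so -2.10 and -0.52 for the arms were fixed in advance. Deviations of same-numbered libraries correlated between -0.13 and 0.22, above 0.1 in 1 of 8 pairs, and 3 of 16 libraries correlated best with their own number, so the numbers were not taken to pair the mice. The 5p arm rests on 43 reads in all, 23 of them in PS19 replicate 5.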
